A study of Mus musculus with 12 samples.

Results

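The regions described here are the stretches of open chromatin in mouse intestinal epithelium that were listed for the Sox9 High and Sox9 Low populations and for neither the Sox9 Sublow nor the Sox9 Negative population. They were chosen by presence in 4 deposited peak lists. Peaks of different lists with 1 bp or more in common, or end to end, were joined into 82365 merged regions, and the 4922 regions with peaks of the High and Low lists alone are the members. They were 5.98% of all merged regions (exact 95% interval 5.82 to 6.14%).

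The lists come from Omni-ATAC-seq, in which a transposase cuts and tags accessible DNA. Cells of C57Bl/6 mice with a Sox9-EGFP reporter were sorted into Sox9 Negative, Sox9 Sublow, Sox9 Low and Sox9 High by reporter level. Each population had 3 libraries, and the label of each library gives 12000 cells collected. Every population carries the reporter, so no group is without it, and the age of the mice and whether libraries came from separate animals are not given in the labels. The labels call all 4 populations intestinal epithelial cells. A sort gate on 1 reporter yields populations enriched for a cell type, and the lists cannot check this against marker genes, because peaks were not assigned to genes here.

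Sox9 is a transcription factor made in the crypts of the intestine. In work with this type of reporter mouse, cells of low signal are enriched for the Lgr5-expressing stem cells of the crypt base, and cells of high signal for enteroendocrine and other secretory cells. Cells of sublow signal are enriched for transit-amplifying progenitors, and cells without signal for differentiated epithelium, largely absorptive enterocytes. Secretory cells arise from stem cells through progenitors that escape Notch signalling and express Atoh1. Regions open in stem cells and in secretory cells may include enhancers, which are stretches of DNA away from gene starts where transcription factors bind. An ATAC peak alone does not show whether a region acts as one.

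The High list held 54395 peaks and the Low list 58356. The members took up 4929 of the High peaks (9.06%) and 4946 of the Low peaks (8.48%), and 9.18% of merged High regions and 8.56% of merged Low regions. By bases they took up 7.10% of the High list and 4.46% of the Low list. The High and Low lists met in 38677 merged regions, and 12.7% of these lacked any Sublow or Negative peak and so were members. No member had a count of reads or a value per library, so replicate error is missing from every value here and libraries could not be tested against each other. The exact binomial intervals treat regions as independent and cover counting error only.

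Nearly every member was a simple pair of peaks. In 4892 members (99.4%) there was 1 High peak and 1 Low peak, and the other 30 had more than 1 peak of a list. Of these, 22 had 1 High and 2 Low peaks, 1 had 1 High and 3 Low peaks, and 7 had 2 High and 1 Low peaks. A High peak spanning several Low peaks was thus the commoner form of a compound member.

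The peaks of a pair overlapped or touched by rule, and their centres mostly lay close together. The median distance between the centre of the High peak and that of the Low peak was 31.3 bp (quartiles 14 and 63.5 bp), and the peaks shared a median of 208 bp (quartiles 163 and 284 bp). In 73.5% of members with 1 peak of each list, 1 peak lay wholly inside the other. This was common in other regions too. In regions of all 4 lists, Low lay inside High in 15.5% and High inside Low in 50.3%. Fewer than 100 bp were shared in 120 of the 4892 members (2.45%). In regions of all 4 lists the median distance between the High and Low centres was 31.5 bp, close to that of the members, although those peaks were wider.

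Within members the High peak was the wider as the lists were deposited, though not when each list was cut to its widest peaks, where the median log2 ratio of High to Low width was -0.02. In the lists as deposited, High peaks had a median of 341 bp (exact 95% interval of the median 333 to 347 bp, quartiles 224 and 479 bp), and Low peaks 236 bp (232 to 241 bp, quartiles 184 and 325 bp). The median ratio of High to Low width was 1.31-fold, or 0.39 on the log2 scale (0.37 to 0.41). High was the wider in 3488 of 4892 members, which is 71.3% (70.0 to 72.6%), Low in 1377 (28.1%), and 27 had equal widths. Across all 37424 regions with 1 High and 1 Low peak, members included, High was the wider in 36.3%. Presence in these lists chose the members and width was read from the same lists, so these ratios are a description with no test.

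Large differences in width were also mostly toward High. The High peak was at least 2-fold wider in 998 members (20.4%), against 3.79% of all regions with 1 peak of each. The Low peak was at least 2-fold wider in 176 members (3.60%), against 8.85% of all such regions. At 4-fold the numbers were 91 members with the wider High peak and 21 with the wider Low peak, and the share over all such regions is not given here. The Low peak lay wholly inside the High peak in 2771 members (56.6%), and the High peak inside the Low peak in 833 (17.0%). Where Low lay inside, High extended over a median of 172 bp more, and where High lay inside, Low extended over 83 bp more. In regions of High, Low and Negative, Low lay inside in 48.6% and High in 19.7%, near the shares of members. The shares were 20.6% and 47.4% in regions of High, Low and Sublow, and 15.5% and 50.3% in regions of all 4 lists.

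Among the 998 members with a High peak at least 2-fold wider, 947 had the Low peak wholly inside. Their medians were 512 bp for High and 186 bp for Low. The like count in other kinds of region is not given here.

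**Figure D1:**
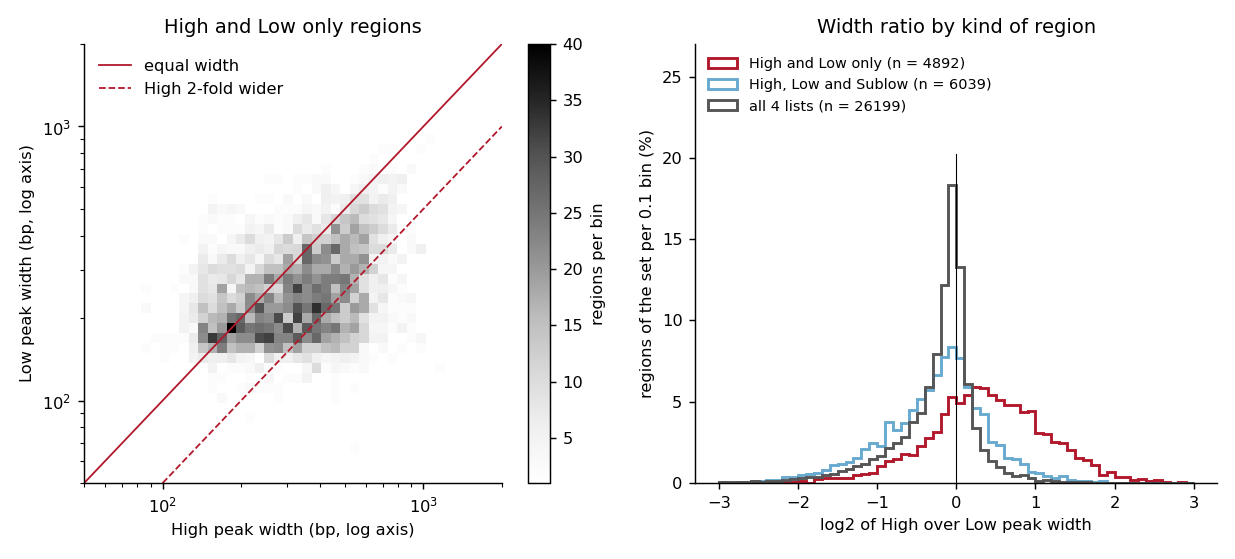
Widths of the High and Low peaks in regions with 1 peak of each list. On the left, each square counts members by High width (x axis, bp, log axis) and Low width (y axis, bp, log axis) from 50 to 2000 bp, which leaves out 11 members with a peak under 50 bp; most squares lie below the solid line of equal width. On the right, the share of regions (y axis, %) is drawn per 0.1 of the log2 ratio of High to Low width (x axis, cut at 3 either way) for members, for regions of High, Low and Sublow, and for regions of all 4 lists; the medians are 0.39, -0.19 and -0.11.

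The ratio stood the other way round in regions that Sublow also held. In the 6039 regions of High, Low and Sublow with 1 High and 1 Low peak, the median log2 ratio of High to Low width was -0.19 (-0.21 to -0.17), and High was the wider in 34.7%. In 26199 regions of all 4 lists it was -0.11 (-0.12 to -0.11), and High was the wider in 29.8%. The few regions of High, Low and Negative, 294 in number, lacked Sublow as the members did. Their median log2 ratio was 0.27 (0.14 to 0.37), with High the wider in 65.6%, nearer to the members than to the regions with Sublow.

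The lists differ in their usual peak width, so each peak was also ranked among all peaks of its own list, from the narrowest at 0 to the widest at 100. Member High peaks had a median rank of 43.4 (42.2 to 44.4) and member Low peaks 20.0 (19.3 to 20.9). The median gain of High over Low within a member was 17.9 percentile points. The High peaks of members thus stood near the middle of their list, and the Low peaks among the narrower ones of theirs. In regions of High, Low and Sublow the High peaks ranked at 42.5, close to those of members, while the Low peaks ranked at 46.6. Between these kinds of region, which differ by rule in Sublow alone, the rank of the Low peak differed far more than that of the High peak. Presence of Sublow made this split and widths were read from the same lists, so the contrast is a description with no test.

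Member peaks were wider than peaks held by 1 list. High peaks of members had a median of 341 bp and a rank of 43.4, against 245 bp and 26.8 in regions held by High alone. Low peaks of members had a median of 236 bp and a rank of 20.0, against 205 bp and 14.2 in regions held by Low alone. Low peaks of regions held by Low and Sublow only stood higher, at 319 bp and 33.6. In regions of all 4 lists the ranks were 70.4 for High and 72.7 for Low. Joining at 1 bp favours wider peaks in regions of several lists, so these differences are a description with no test.

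**Figure D2:**
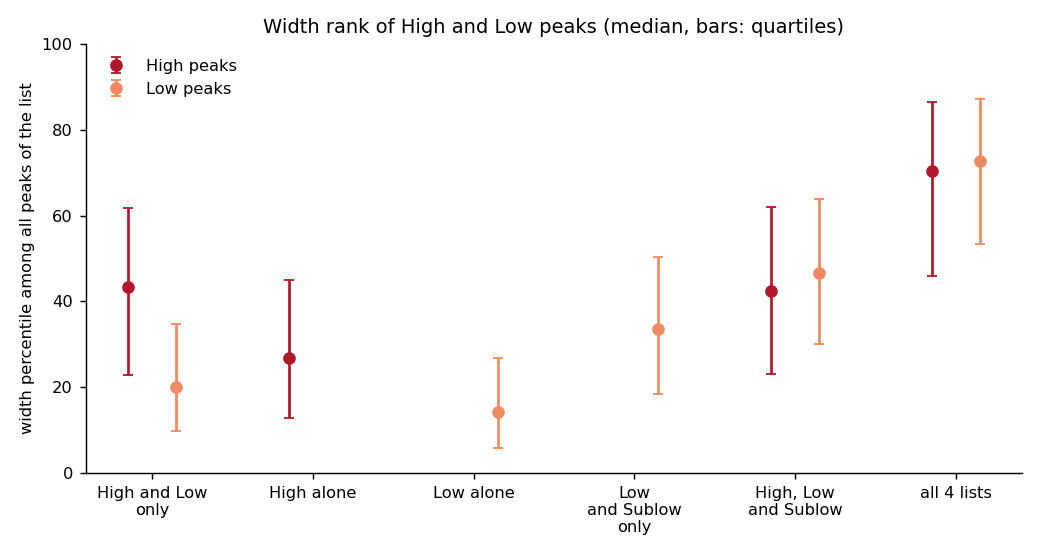
Width of High and Low peaks as a percentile among all peaks of the same list (y axis) by kind of merged region (x axis); points are medians over regions and bars run between the quartiles. Members, at the left, pair High peaks at 43.4 with Low peaks at 20.0, whereas High and Low stand at 42.5 and 46.6 in regions that Sublow also held.

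Pairs at other levels of the reporter were compared in the same way, with the higher level on top of the ratio. In 5877 regions of Low and Sublow only, with 1 peak of each, Low peaks had a median of 317 bp and Sublow peaks 267 bp, a log2 ratio of 0.16 (0.15 to 0.18). In 2602 regions of Sublow and Negative only, Sublow peaks had a median of 225 bp and Negative peaks 304.5 bp, a log2 ratio of -0.32 (-0.34 to -0.30). In regions of all 4 lists the same pairs had ratios of -0.01 for Low over Sublow and 0.24 for Sublow over Negative. For each of the 3 pairs the sign was the other way in the regions of the pair alone, though the -0.01 for Low over Sublow is near equal width. The wider peak was at the end of the reporter range for the High and Low pair and for the Sublow and Negative pair. Regions of a pair alone were chosen by absence of the other lists. Widths come from the same lists, so these signs are a description with no test.

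Members were of middling width. Merged members had a median of 377 bp (quartiles 273 and 505.8 bp, range 115 to 1948 bp), against 409 bp over all merged regions. Their share of all merged regions was 2.93% below 200 bp, 7.97% from 200 to below 300 bp, 9.16% from 300 to below 400 bp and 9.21% from 400 to below 500 bp. It was 6.34% from 500 to below 750 bp, 2.26% from 750 to below 1000 bp and 0.599% from 1000 bp up, where 45 members lay. Within the regions of High and Low, the share of members was lower in each wider class, at 67.5% below 200 bp and 0.620% at 1000 bp or more. The span of a merged region takes in all of its peaks, so it rises in part with the number of lists.

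Few members had a wide peak in each list. Both peaks reached 300 bp in 1156 members (23.6%) and 500 bp in 162 (3.31%). The High peak reached 300 bp in 58.7% of members and 500 bp in 22.2%, whatever the width of Low. The Low peak reached 300 bp in 30.9% and 500 bp in 5.56%. Peaks under 200 bp made up 18.9% of member High peaks and 33.7% of member Low peaks.

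The size and the direction of the width ratio depended on how peaks were filtered and joined. When each list was cut to its 22730 widest peaks, 960 regions were of High and Low only, and the medians were 589.5 bp for High and 599 bp for Low. The log2 ratio was then -0.02, with High the wider in 47.6%. A peak of Sublow or Negative too narrow for that cut counts as absent, so these 960 regions are not a subset of the members by rule. With peaks of at least 200 bp, a milder filter, the ratio was 0.31 in 3636 regions. With a reciprocal overlap of 50% between peaks in place of 1 bp, 4233 regions were of High and Low only, the ratio was 0.20 and High was the wider in 65.6%. A Sublow or Negative peak that overlaps by less counts as absent there, so these 4233 regions are not a subset of the members by rule either.

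The widest members were mostly a broad High peak around a short Low peak. The widest covered 1948 bp on chromosome 2 from 121119873 to 121121820 (mm9, as all positions here), where the High peak took the whole width and the Low peak 112 bp, a 17.4-fold difference. On chromosome 9 from 54394174 to 54395878, High covered 1705 bp and Low 288 bp. On chromosome 17 from 10511471 to 10513141, High covered 1671 bp and Low 173 bp. On the X chromosome from 97014796 to 97016465, 1 High peak of 1539 bp met 2 Low peaks of 495 bp together. On chromosome 7 from 6680155 to 6681703, High covered 1549 bp and Low 722 bp. In all 5, High had more bases than Low.

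Where each peak was at least 300 bp wide, differences were smaller. The member with the most High width relative to Low lay on chromosome 8 from 96199090 to 96200214, with 1125 bp in High and 367 bp in Low, a 3.07-fold difference. The next 4, on chromosomes 15, 9, 11 and 3, ranged from 2.91-fold down to 2.77-fold, with High at 1056, 941, 971 and 992 bp. The member with the most Low width relative to High lay on chromosome 14 from 76653719 to 76654571, with 376 bp in High and 853 bp in Low. Low was 2.27-fold wider there. The next, on chromosome 7 from 81158264 to 81158972, had 314 bp in High and 709 bp in Low and lay 101110 bp from any other region. In the other 3, on chromosomes 13 and 2, Low was 2.01-fold to 2.03-fold wider.

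The rule has limits at 1 bp on each side. The members with the least common ground were on chromosome 10 from 39267488 to 39267907, where High and Low shared 5 bp, and on chromosome 11 from 112016573 to 112017027, where they shared 6 bp. Just outside, a Low alone region on chromosome 4 from 116713123 to 116713177 ended or began 3 bp from a High alone region and was not joined with it. On the side of absence, the nearest member to a Sublow peak lay 5 bp from it, on chromosome 7 from 116588498 to 116588802. A region of High, Low and Sublow on chromosome 9 from 34906292 to 34906843 was left out because Sublow shared 14 bp with the span of the others.

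Such near misses were few. A Sublow or Negative peak lay within 500 bp of 143 members (2.91%) and within 1000 bp of 344 (6.99%). The median distance from a member to the nearest Sublow or Negative peak was 11410 bp (10877 to 12048 bp), and 800 members (16.3%) had none within 50000 bp. At least 100000 bp lay between 391 members (7.94%) and any such peak. These distances were not particular to members. The median was 11558 bp (11148 to 12002 bp) for High alone regions, and 7060 bp (6690 to 7328 bp) for Low alone regions. The upper quartile was 30678.2 bp for members and 33662.2 bp for High alone regions. The nearest was a Sublow peak in 3825 members (77.7%). The Sublow list is also the longer of those lists, with 52113 peaks against 45461 in Negative. Distances run to the edge of a peak, so where a region holds both lists the wider peak can count as the nearer. In regions of all 4 lists, the median width was 666 bp for Sublow peaks and 532 bp for Negative peaks paired with each other. How much of the 77.7% comes from such shared regions was not tested.

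The lead of High in width was seen at each distance. Members within 1000 bp of a Sublow or Negative peak had a median of 294 bp in High and 214 bp in Low, a log2 ratio of 0.36 (0.26 to 0.46). From 1000 to 5000 bp the ratio was 0.35, from 5000 to 20000 bp it was 0.39, and from 20000 to 100000 bp it was 0.40. Members at 100000 bp or more had 378 bp in High and 264 bp in Low, a ratio of 0.43 (0.35 to 0.52). Peaks of each list were thus wider in the remote members, and the intervals of the ratio overlapped between all 5 classes.

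Remote members could be very isolated, as could regions of other kinds. The largest distance to the nearest merged region was 1981948 bp for High alone regions and 2209944 bp for Low alone regions. On chromosome 7 from 11080489 to 11080852, a High peak of 341 bp and a Low peak of 355 bp shared 332 bp, and the nearest merged region of any kind lay 1926728 bp away. The next most isolated lay on chromosome 10 from 113367135 to 113367424, 946030 bp from any other region, with 290 bp in High and 225 bp in Low. On chromosome 19 from 48938851 to 48939270, 926533 bp from the next region, High had 420 bp and Low 324 bp. At the other extreme, a member on chromosome 3 from 107959569 to 107960082 lay 4 bp from the next region, and others on chromosomes 7 and 6 lay 5 and 17 bp from it.

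Members lay far from the regions that all lists shared. Their median distance to the nearest region of all 4 lists was 23572 bp (22357 to 24824 bp), against 12986 bp over all merged regions. The value for regions of High alone was 23392.5 bp (22719 to 24256 bp), within the interval of the members. Regions of Low alone had 16777 bp (15959 to 17520 bp) and regions of Low and Sublow only 12665.5 bp (12126 to 13243 bp). By this measure members stood with the High alone regions and apart from the Low alone regions.

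The next region along the chromosome was looked up on both sides of each member, which gave 9842 neighbours. Regions of High alone made up 26.0% of them (25.1 to 26.9%), against 16.6% of all merged regions, or 1.56-fold. Other members made up 10.5% (9.91 to 11.1%), against 5.98%, or 1.76-fold. Each pair of adjacent members enters this share from both sides, so its interval is too narrow even for counting error. Regions of High, Low and Sublow made up 9.08%, 1.21 times their share of all merged regions, and regions of Low alone 7.18%, or 1.12 times. No chance value was computed for these shares, and regional differences in how closely regions lie were not corrected for.

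Kinds of region with a Negative peak were less common beside members than among all merged regions. Regions of Sublow and Negative only made up 1.76% of the neighbours, against 3.17% of all merged regions, and regions of Negative alone 4.20%, against 6.82%. Regions of Negative, Sublow and Low, which High lacks, made up 5.63%, against 8.92%. Regions of all 4 lists were 25.7%, against 33.1%. By list, 38.8% of the neighbours held a Negative peak, against 53.9% of all regions, and 51.1% held a Sublow peak, against 62.8%. A Low peak was held by 65.1%, against 69.8%, and a High peak by 72.8%, against 65.1%. The shares beside High alone regions were close to these, with a Negative peak in 40.7% of neighbours, a Sublow peak in 51.0% and a High peak in 73.8%, so the lower shares of Sublow and Negative were not particular to members. Beside them, High alone regions stood at 1.67 times and members at 1.56 times their share of all regions. Beside Low alone regions, 47.0% of neighbours held a Negative peak, which is also under the share among all regions.

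**Figure D3:**
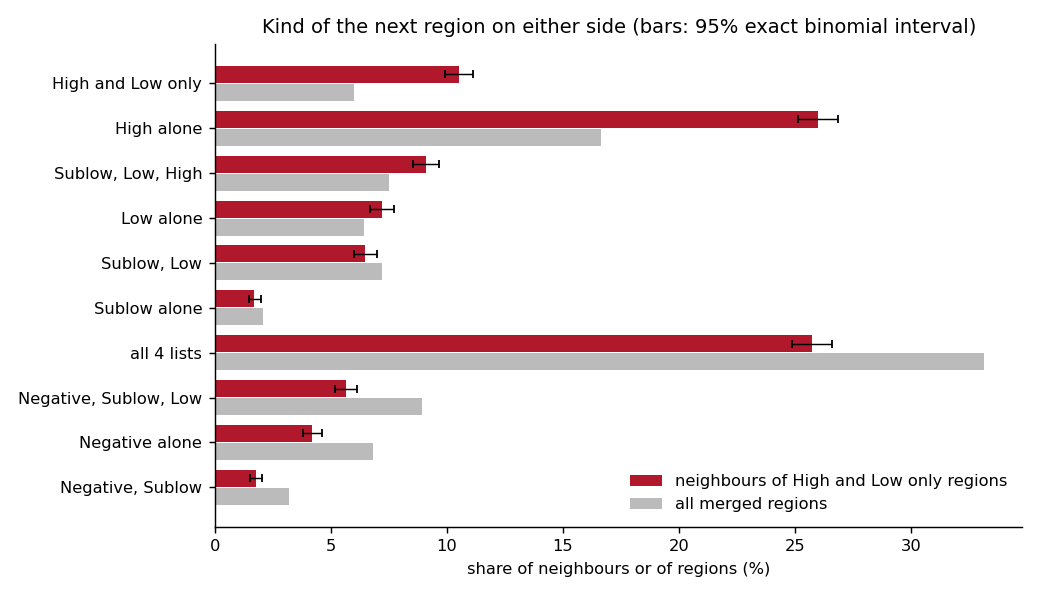
Kind of merged region found next to members (red, share of 9842 neighbours, %, with exact 95% binomial intervals) and share of the same kind among all 82365 merged regions (grey, %), ordered by the ratio of the shares. Only kinds above 1% of all regions are drawn, and adjacent members are counted from both sides. Members themselves (1.76-fold) and High alone regions (1.56-fold) stand at the top, and regions of Negative and Sublow at the bottom.

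Stretches without Sublow and Negative peaks could be followed past the members. In 1094 members (22.2%, 21.1 to 23.4%) neither neighbour held a Sublow or Negative peak, against 10.8% of all merged regions. The share was 21.9% for High alone regions, 12.1% for Low alone regions and 8.52% for regions of Low and Sublow only. A neighbour on at least 1 side was itself a member for 968 members (19.7%), against 17.6% of High alone regions, 12.7% of Low alone regions and 11.4% of all merged regions. Regions of other kinds also lay in runs of their own kind, namely 6206 of 13694 High alone regions, 981 of 5283 Low alone regions and 1139 of 5914 regions of Low and Sublow only. The members in runs fell into 395 runs of 2 members in a row, 48 runs of 3, 6 runs of 4 and 2 runs of 5.

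The runs of 5 lay on chromosomes 3 and 14 and were singled out after their values were seen. The run on chromosome 3 from 133809492 to 133884296 spanned 74805 bp, with 2030 bp of High peaks and 1350 bp of Low peaks, and High was the wider in 4 of its 5 members. The run on chromosome 14 from 4051685 to 4437768 spanned 386084 bp. High was the wider in all 5 of its members, with 2545 bp of High peaks and 676 bp of Low peaks and a median log2 ratio of 1.66. Each of its members lay at least 69411 bp from any other region. Whether these stretches share sequence, which can affect where reads map, was not tested.

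Members were gathered in some windows of 100 kb on a fixed grid. Of 3925 windows with a member, 3104 held 1, 688 held 2, 97 held 3, 31 held 4, 4 held 5 and 1 held 7. The window with 7 lay on chromosome 5 from 129400001 to 129500000 and had 9 regions. The other 2 were of High alone, so no Sublow or Negative peak lay in the whole window. Within its members, High peaks ran from 142 to 557 bp and Low peaks from 83 to 318 bp, and High was the wider in 6 of 7. The exception, from 129441311 to 129441589, had 142 bp in High and 279 bp in Low.

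The 4 windows with 5 members each differed in what surrounded them. On chromosome 2 from 79200001 to 79300000, all 10 regions held a High peak, 4 of them High alone. No Sublow peak was listed there, and 1 region held a Negative peak. High was the wider in all 5 members, with 517 to 1343 bp against 177 to 546 bp in Low, and the broadest, from 79218664 to 79220006, had 1343 bp in High and 264 bp in Low. On chromosome 3 from 133800001 to 133900000, the 5 members of the run above stood with 1 region of all 4 lists. On chromosome 11 from 118600001 to 118700000, all 10 regions again held a High peak, 2 a Sublow peak and none a Negative peak. There the 5 members had 383 to 1144 bp in High and 128 to 219 bp in Low. On chromosome 10 from 43300001 to 43400000, 15 regions were listed, 12 with a High peak, 9 with a Low peak, 5 with a Sublow peak and 1 with a Negative peak. Genes of these windows are not described here.

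**Figure D4:**
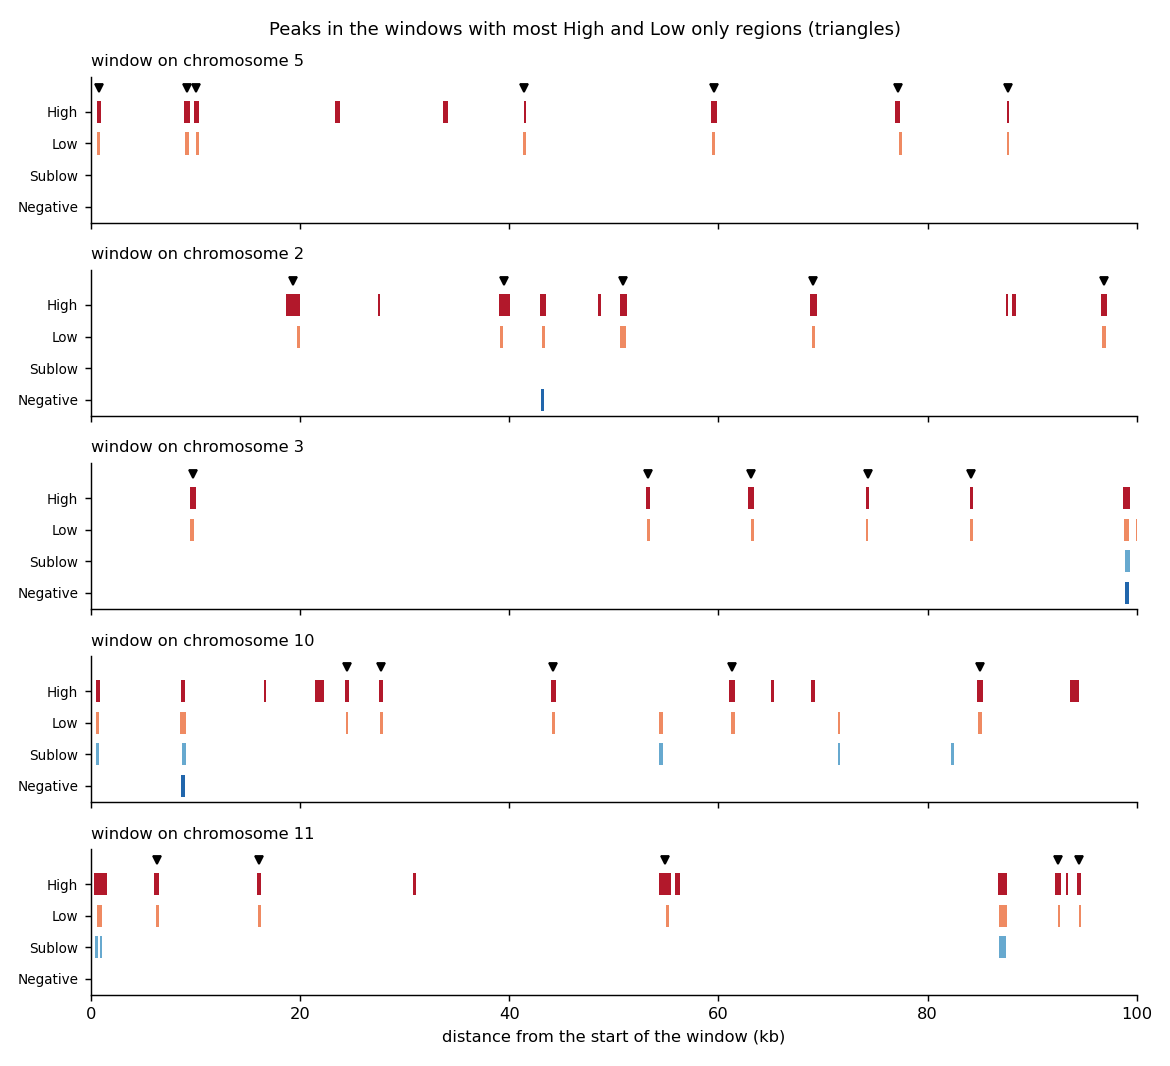
Peaks of the 4 lists (rows) in the 5 windows of 100 kb with the most members, by distance from the start of the window (x axis, kb). Each bar is a peak, drawn at least 250 bp wide so that it can be seen, and triangles mark members. The window on chromosome 5 holds 7 members and no Sublow or Negative peak.

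Across the windows with at least 3 members, 13 of 133 (9.77%) held no region with a Sublow or Negative peak, and the chromosome 5 window was 1 of these. Of 821 windows with at least 2 members, 109 (13.3%) held none, against 950 of 12462 windows (7.62%) with at least 2 merged regions of any kind. Of the 3925 windows with at least 1 member, 17.6% held none, against 15.7% of all windows with a merged region. Windows with members hold by rule regions that lack Sublow and Negative, so nothing is read from these differences. Most windows with several members thus also held regions listed for Sublow or Negative.

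Members were found on every autosome at similar shares. Their share of merged regions ran from 5.53% on chromosome 7 to 6.65% on chromosome 12, and each autosome had between 150 and 372 members. The X chromosome stood lower, with 64 members in 1605 merged regions, or 3.99% (3.08 to 5.06%), against 6.02% on the autosomes together (5.85 to 6.18%). Within regions held by High and Low, members were 9.38% on X and 12.8% on the autosomes. The Y chromosome had 1 member in 25 regions. The median log2 ratio of High to Low width was above 0 on each autosome, from 0.27 on chromosome 16 to 0.47 on chromosome 11. On X it was 0.22, yet High was the wider in 77.8% of X members with 1 peak of each list. That share ran from 66.8% on chromosome 14 to 76.0% on chromosome 13 among autosomes, so the 2 measures differ on the few X members.

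**Figure D5:**
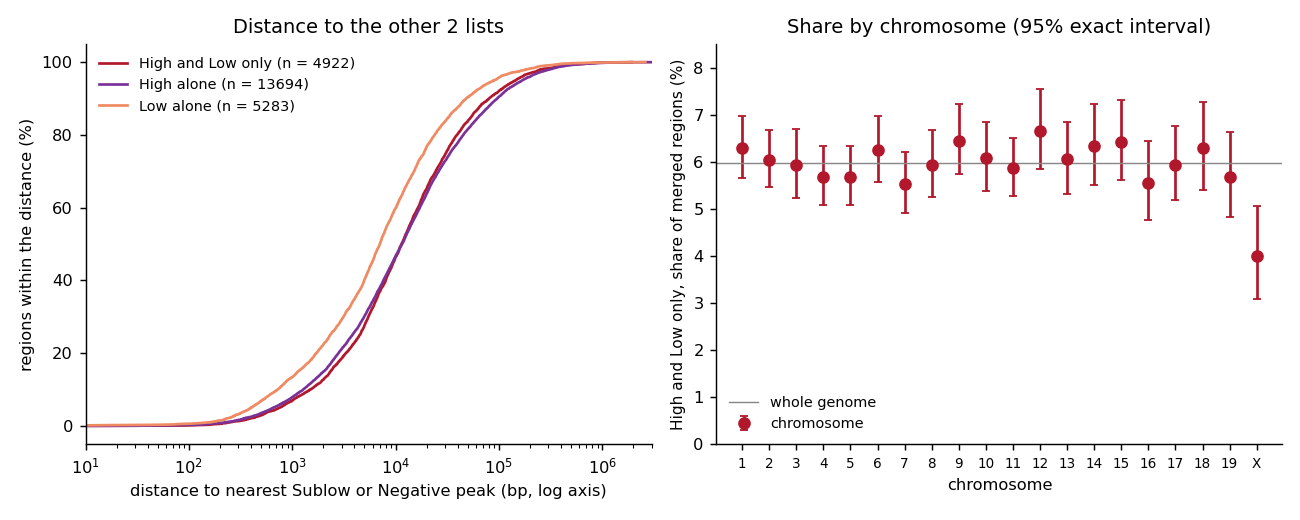
On the left, the share of regions (y axis, %) with a Sublow or Negative peak within a given distance (x axis, bp, log axis) for members, High alone regions and Low alone regions, whose medians are 11410, 11558 and 7060 bp. On the right, members as a share of merged regions (y axis, %) by chromosome (x axis, without Y), with exact 95% binomial intervals and a line at the share of 5.98% over all merged regions; X lies lowest at 3.99%.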

How the data were processed

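Per the submitters' processing notes, MACS2 2.1.2, Bowtie2 2.3.4, Trim Galore 0.4.3, deepTools 2.5.2 and Picard 2.10.3 were used with mm9. Their roles and settings, any Tn5 shift and the rule that combined libraries are not given in the sources used here. For each population the authors deposited a single list of consensus peaks, with positions but no score, count or depth. The values therefore have no replicate error. Starts and ends were read as counted from 1 with the end included, since every list has a peak whose start equals its end. Distances run from end to start. Medians have exact order-statistic intervals at 95%.

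The regions and measures were chosen with earlier results of these data known. Regions were named by rule: the 5 widest members, 3 windows with most members and ties, 5 members with the largest width ratio each way where both peaks reached 300 bp, and the 3 nearest to and farthest from any region. No mm9 genome or annotation was used, so genes, motifs and sequences are not reported. Merging was tested on simulated lists, in which the peaks of a region had a common centre and regions lay far apart. The limit at 1 bp and regions with several peaks of a list were not covered by that test. The tools were Python 3.11.15, scipy 1.17.1, numpy 2.4.6, matplotlib 3.10.9 and pandas 2.3.3.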

Additional observations from a re-analysis of the deposited data

How the results depend on the processing

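No paired analysis was possible because the lists give no value per library, and replicates could not be left out for that reason. Alternatives on gene starts, genes and motifs were not run. Depth is unknown. Of 39 values under 6 alternatives, 22 stayed within 1.5-fold (the number of members) or inside the exact interval, 16 moved and 1 turned its sign. The 22 include the median share of the shorter peak covered by the other. It was at its limit of 100% in each setting that gave it. The 22 also include every value of the settings that left most members in place. The tally therefore says little on how firm the values are. With a reciprocal overlap of 50%, the share of merged regions was 4.48%, the medians 323 bp for High and 272 bp for Low, the log2 ratio 0.20 and the distance to a Sublow or Negative peak 8143 bp. That setting drops pairs of very unequal width by construction. It also counts a Sublow or Negative peak that overlaps by less than 50% as absent, and its distances include such peaks. With peaks up to 500 bp apart merged, this distance was 12089 bp. With peaks of at least 200 bp, the values were 5.23%, 390 bp for High, 297 bp for Low, 0.31 and 12628 bp. With the 22730 widest peaks of each list there were 960 members (2.80%), with 589.5 bp for High, 599 bp for Low, a log2 ratio of -0.02 (-0.017) and 20444 bp. That setting keeps wide peaks only by construction. Autosomes only (4857), and members at least 1 kb from Sublow and Negative peaks (4578, chosen after seeing the data), moved none of the values they gave. Both settings keep most of the 4922 members.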
